A study of Mus musculus with 3 samples.

Results

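The genes that take glucose into the cell, break it down to pyruvate and lactate, and respond to low oxygen were described in the Dlx2-overexpressing maxillary process. They were chosen by name, from a list of 33 mouse gene symbols for glucose transporters, glycolytic enzymes, lactate and pyruvate handling and the hypoxia-inducible factor (HIF) system. The rule used names and no measured value. The list met 34 entries of the 55401 genes in the count tables, because the symbol *Aldoa* is carried by 2 gene identifiers in GENCODE M21. The samples were 3 bulk RNA-Seq libraries of intact E10.5 maxillary processes, the facial swellings that form the upper jaw, dissected from Wnt1cre; Rosa26Dlx2/- mouse embryos. In these embryos, Cre under the *Wnt1* promoter removes a stop cassette before a Flag-tagged *Dlx2* transgene at the *Rosa26* locus, so that the transgene is switched on in the neural crest lineage, while the tissue also holds surface epithelium, endothelium and blood of other origin. All 3 libraries (OE replicates 1, 2 and 3) had this one genotype, stage and tissue. How many embryos each RNA sample came from was not given in the sources used here, and wild-type samples were not used here, so no effect of *Dlx2* on any gene was measured.

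Glycolysis turns glucose into pyruvate in a fixed chain of enzymes, most of them encoded by several genes whose proteins are used in different tissues. When oxygen is low, prolyl hydroxylases no longer mark the HIF alpha subunits for destruction, and the stabilised factor switches on glucose transporters, glycolytic enzymes, lactate dehydrogenase A and the kinase that inactivates pyruvate dehydrogenase. Early mouse embryos live at low oxygen before their circulation is mature, and glycolysis is known to be active in cranial neural crest and other embryonic mesenchyme.

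HIF binds DNA at a short core, ACGTG or GCGTG, often called the hypoxia response element core. The core was searched on both strands in the 250 bases before each RefSeq start site (assembly GRCm38.p6), so that CACGT and CACGC count as the reverse strand of the core, and the palindrome CACGTG counts on both strands. Of the 34 entries, 31 genes had a promoter in the table used, and 27 of these held at least 1 core, or 87.1%, against 59.8% of the 11625 tested genes with a promoter and 41.5% of all 27025 genes with one. Among the further genes of glucose and oxygen metabolism described last, 32 of 51 (62.7%) held a core. With ACGTG alone, the counts were 17 of 31 members (54.8%), 24.3% of tested genes and 18.5% of all genes. Genes can have several start sites, and per window the core was found in 35 of the 44 windows of members (79.5%) and in 53.9% of the windows of tested genes. The median GC content was 61.0% in the members' windows, 59.6% in those of tested genes and 52.4% in all windows. *Eno2*, *Gpi1*, *Pgam2* and *Tpi1* had no such letters in any window, which says nothing about whether HIF acts on them from elsewhere.

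The promoters of 6 members follow, in 5′ to 3′ direction on the gene's own strand, with the cores of either strand in capitals. *Ldha* (chr7:46845554-46845803, plus strand) and *Pgk1* (chrX:106186850-106187099, plus strand) are shown as steady, abundant members. *Slc16a1* (chr3:104638414-104638663, plus strand), *Bnip3* (chr7:138909507-138909756, minus strand) and *Egln3* (chr12:54203875-54204124, minus strand) are shown because their counts were highest in replicate 1, and *Gapdh* (chr6:125165774-125166023, minus strand) because its counts were highest in replicate 3.
Ldha: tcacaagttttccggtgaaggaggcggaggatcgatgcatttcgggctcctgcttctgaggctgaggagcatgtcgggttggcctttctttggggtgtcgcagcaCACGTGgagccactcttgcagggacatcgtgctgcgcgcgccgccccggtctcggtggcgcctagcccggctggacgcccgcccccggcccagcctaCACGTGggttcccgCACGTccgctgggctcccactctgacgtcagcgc
Pgk1: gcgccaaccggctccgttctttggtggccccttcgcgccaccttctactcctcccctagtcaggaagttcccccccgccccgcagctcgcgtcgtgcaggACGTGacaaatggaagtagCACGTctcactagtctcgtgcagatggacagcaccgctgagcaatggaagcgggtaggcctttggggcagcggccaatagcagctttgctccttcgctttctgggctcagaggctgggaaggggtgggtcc
Slc16a1: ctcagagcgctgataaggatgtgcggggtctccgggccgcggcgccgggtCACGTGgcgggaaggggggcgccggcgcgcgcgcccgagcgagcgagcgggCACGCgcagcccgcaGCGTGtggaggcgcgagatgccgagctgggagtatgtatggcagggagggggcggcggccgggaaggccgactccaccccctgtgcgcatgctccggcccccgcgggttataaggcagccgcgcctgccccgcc
Bnip3: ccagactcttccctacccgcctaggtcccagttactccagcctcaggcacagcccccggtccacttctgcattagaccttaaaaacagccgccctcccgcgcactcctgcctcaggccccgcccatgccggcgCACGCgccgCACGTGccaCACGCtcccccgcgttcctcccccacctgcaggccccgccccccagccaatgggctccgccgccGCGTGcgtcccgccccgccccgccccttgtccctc
Egln3: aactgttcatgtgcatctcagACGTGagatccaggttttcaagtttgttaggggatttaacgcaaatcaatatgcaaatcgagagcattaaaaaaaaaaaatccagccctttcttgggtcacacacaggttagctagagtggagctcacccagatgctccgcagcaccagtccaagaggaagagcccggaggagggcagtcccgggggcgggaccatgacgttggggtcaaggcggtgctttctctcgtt
Gapdh: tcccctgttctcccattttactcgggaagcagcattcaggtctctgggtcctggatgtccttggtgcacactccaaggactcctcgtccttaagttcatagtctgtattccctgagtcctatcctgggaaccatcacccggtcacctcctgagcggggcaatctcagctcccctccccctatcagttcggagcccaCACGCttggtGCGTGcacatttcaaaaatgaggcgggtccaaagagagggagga

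Each match is a description of the letters, and binding of HIF was not measured. In the window printed for *Ldha*, 2 of the 3 marked stretches are the palindrome CACGTG and all are of the ACGTG form. A second *Ldha* window (chr7:46846832-46847081), not printed, held 1 core, of the GCGTG form. The 2 cores of *Pgk1* lie on opposite strands, while *Gapdh* holds GCGTG only.

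Depth was similar between the libraries, at 35351031 to 40057435 counts on genes, so that 3 counts, the limit set by a count of 0, correspond to 0.0777 to 0.0843 CPM. CPM are counts per 1000000 counts on genes, scaled between libraries by the TMM method. *Dlx2* itself had 235, 201 and 183 CPM in replicates 1, 2 and 3. The libraries did not match each other in other tissues or in sex. Replicate 1 had *Xist* at 671 CPM and no counts on the Y-linked genes, whereas replicates 2 and 3 had *Xist* at 0.309 and 0.557 CPM and Y-linked genes summed to 146 and 109. All 9 of 9 neuron markers were highest in replicate 1 (summed 273, 24.3 and 35.9 CPM, with *Tubb3* at 115, 7.64 and 16.9). Summed eye and forebrain markers stood at 21.3, 153 and 142 CPM, pigment cell markers at 0.648, 8.09 and 90.7, and primitive red cell markers (*Hba-x*, *Hbb-bh1*, *Hbb-y* and others) at 2137, 3997 and 4932. Of 8 facial mesenchyme markers, 3 were highest in replicate 1, 1 in replicate 2 and 4 in replicate 3, among them *Barx1* (332, 409 and 928 CPM), and they summed to 1998, 2099 and 2718 CPM. Epithelial markers summed to 285, 193 and 213 CPM, endothelial markers to 243, 265 and 178, and macrophage markers to 17.1, 21.5 and 20.8. Replicate 3 also favoured short genes. Its median log2 ratio to the other libraries ran from 0.64 for genes with up to 2 kb of exon to -0.56 for genes over 8 kb, and that of replicate 1 from -0.45 to 0.40. The part of these differences in the values below was not tested, and in bulk tissue fewer cells of a type and less RNA per cell cannot be told apart.

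The pathway was expressed throughout. The 34 entries together took 1.59%, 1.57% and 1.93% of the counts on genes, and *Gapdh*, *Eno1*, *Pkm* and *Ldha* alone took 1.06%, 1.08% and 1.42%. At least 1 CPM in every library was reached by 32 of the 34 (23.3% of all listed genes did so), with *Hk3* and *Ankrd37* as the exceptions. Per kilobase of exon, the scale on which genes can be set side by side, *Gapdh* led the members at 1054 ± 401 CPM per kb (SD, n = 3). It ranked 27 among the 55141 listed genes with an annotated length. Among the members, *Gapdh* was followed by *Eno1* (631 ± 154), *Ldha* (556 ± 34.5), *Pkm* (472 ± 36.2), *Pgk1* (316 ± 18.0), *Aldoa* (272 ± 75.5) and *Tpi1* (254 ± 15.1). Some neighbours in this order overlapped in their libraries' values, such as *Eno1* (514 to 805) with *Ldha* (525 to 593), and *Aldoa* (221 to 358) with both *Pgk1* and *Tpi1*. The values of *Ldha* lay above those of *Pkm* (447 to 513) in all libraries. The lead of *Gapdh* over *Eno1* depends on the length used. *Gapdh* has 4133 exonic bases and a longest transcript of 3289 bases, and *Eno1* has 5379 and 2027. By the longest transcript *Eno1* would stand above *Gapdh* in every library.

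**Figure D1:**
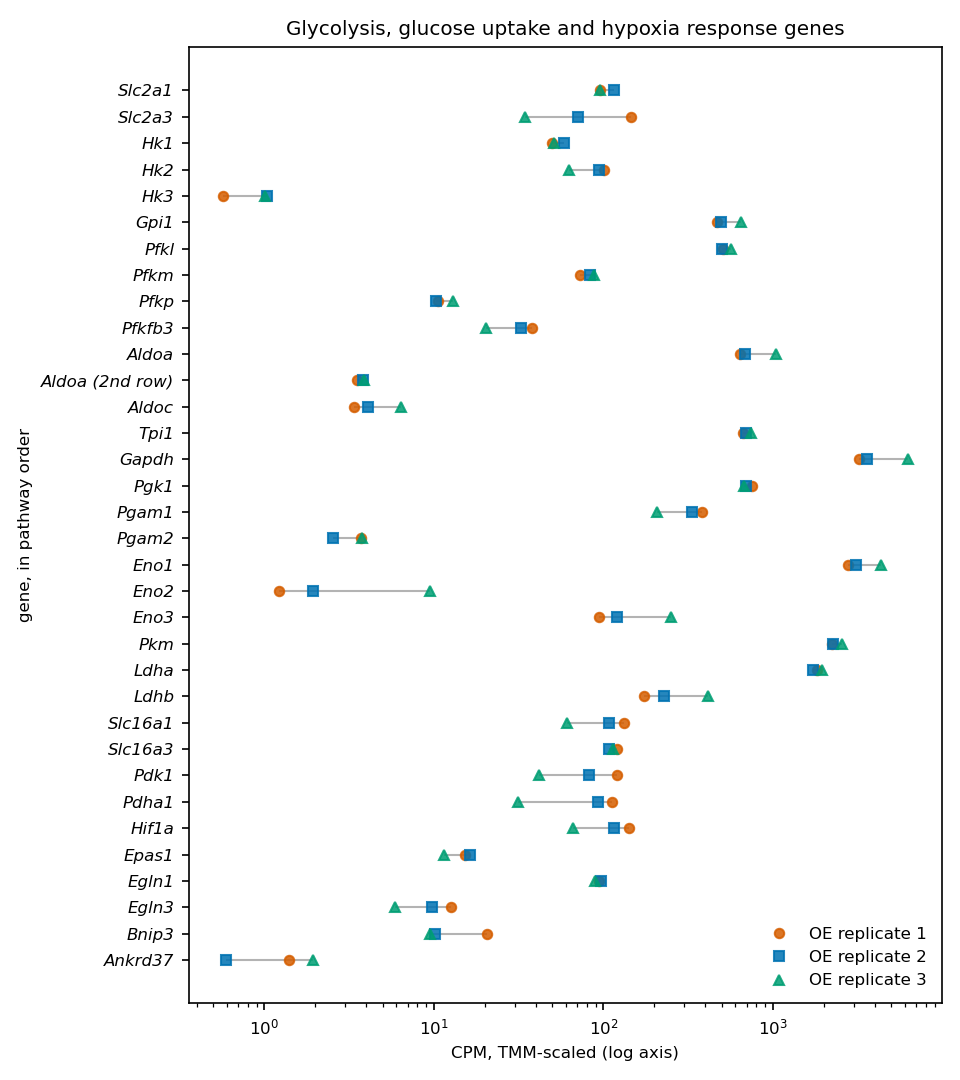
TMM-scaled CPM (log axis) of the 34 entries in pathway order, with 1 symbol per library and a grey line from the lowest to the highest. *Gapdh*, *Eno1*, *Pkm* and *Ldha* lie above 1000 CPM in every library, and *Eno2* has the widest line, from 1.22 to 9.42 CPM.

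The members were then compared between the libraries of this one genotype. By a chi-square test of the counts against the scaled library sizes, with Benjamini-Hochberg adjustment over 17115 genes, 32 of the 34 members differed beyond counting noise, where 81.5% of all tested genes did so. A difference of at least 1.5-fold between the highest and lowest library was seen in 19 members (62.2% of tested genes), and of at least 2-fold in 11 (34.8%). Between the remaining libraries, the count at 1.5-fold was 15 without replicate 1 (44.3% of tested genes), 18 without replicate 2 (56.7%) and 5 without replicate 3 (16.7%). The median fold between highest and lowest was 1.61 over the members, 1.69 over all tested genes and 1.54 over those with at least 5 CPM on average. Once a smooth trend fitted over exonic length and GC content of all tested genes was taken out (called trend removal), it was 1.57 over the members and 1.46 over all tested genes. The median biological coefficient of variation was 0.297 over the members, 0.339 over all tested genes and 0.280 over those with at least 5 CPM. Of all 34 members, 10 were at least 1.5-fold apart with replicate 1 highest (26.2% of tested genes), 1 with replicate 2 (7.4%) and 8 with replicate 3 (28.7%). The genes are described in pathway order in what follows, with mm10 positions that span each annotated gene.

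Glucose enters these cells through facilitative transporters of the GLUT family. *Slc2a1* (ENSMUSG00000028645, chr4:119108711-119137983, plus strand, GLUT1, the broad transporter of embryonic and proliferating cells) had 95.0, 115 and 95.0 CPM in replicates 1, 2 and 3, a 1.21-fold range with replicate 2 on top. *Slc2a3* (ENSMUSG00000003153, chr6:122727809-122801640, minus strand, GLUT3, the high-affinity transporter known from neurons and early embryos) had 146, 70.7 and 34.6 CPM. The range of *Slc2a3* was 4.22-fold, the second widest among the members, and it remained 3.00-fold with replicate 1 highest after trend removal. Replicate 1 is also the library with the highest neuron markers, and their part in *Slc2a3* was not tested. Per exonic kilobase, *Slc2a1* exceeded *Slc2a3* in every library, by ratios of 1.35, 3.36 and 5.68. Per kilobase of coding sequence the ratios were 0.653, 1.63 and 2.76, so that *Slc2a3* was the higher in replicate 1.

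Hexokinases trap glucose as glucose 6-phosphate. *Hk2* (ENSMUSG00000000628, chr6:82725025-82774454, minus strand), the inducible form, had 100.2, 93.6 and 62.6 CPM, and *Hk1*, the housekeeping form, had 49.98, 58.7 and 51.4. Per exonic kilobase *Hk1* was at 0.349, 0.439 and 0.574 of *Hk2*, so that *Hk2* was higher in each library, although by the longest transcript *Hk1* was 1.06 times *Hk2* in replicate 3. *Hk3*, known from blood cells, was low at 0.570, 1.04 and 1.01 CPM, and its counts did not differ beyond counting noise (chi-square test, Benjamini-Hochberg adjusted p = 0.0599). *Gpi1*, which isomerises the hexose phosphate, stood at 471, 492 and 649 CPM and was highest in replicate 3.

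Phosphofructokinase commits the sugar to glycolysis. The liver-type gene *Pfkl* (ENSMUSG00000020277, chr10:77986947-78010083, minus strand) had 508, 503 and 569 CPM, the muscle-type *Pfkm* had 73.1, 83.9 and 87.8, and the platelet-type *Pfkp* had 10.6, 10.3 and 12.9. All of these stayed within a 1.25-fold range, although that of *Pfkp* was 1.92-fold after trend removal. Per exonic kilobase *Pfkl* was 3.00 to 3.47 times *Pfkm* and 88.5 to 98.1 times *Pfkp*, which makes the liver type the leading transcript of the family in all 3 libraries. *Pfkfb3*, whose product makes the activator fructose 2,6-bisphosphate, had 37.7, 32.5 and 20.4 CPM with replicate 3 lowest.

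Aldolase splits the hexose and triose isomerase interconverts the products. *Aldoa* (ENSMUSG00000030695, chr7:126795234-126800751, minus strand) had 644, 684 and 1043 CPM, and the brain-type *Aldoc* had 3.37, 4.07 and 6.37. Both were highest in replicate 3, and the per-kilobase ratio of *Aldoa* to *Aldoc* hardly moved, at 214, 188 and 183. The other gene named *Aldoa* (ENSMUSG00000114515, chr7:126800790-126809108, minus strand), which lies just upstream of the first, had 3.50, 3.79 and 3.88 CPM and did not differ beyond counting noise (chi-square test, Benjamini-Hochberg adjusted p = 0.687). *Tpi1* was steady at 663, 692 and 745 CPM.

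**Figure D2:**
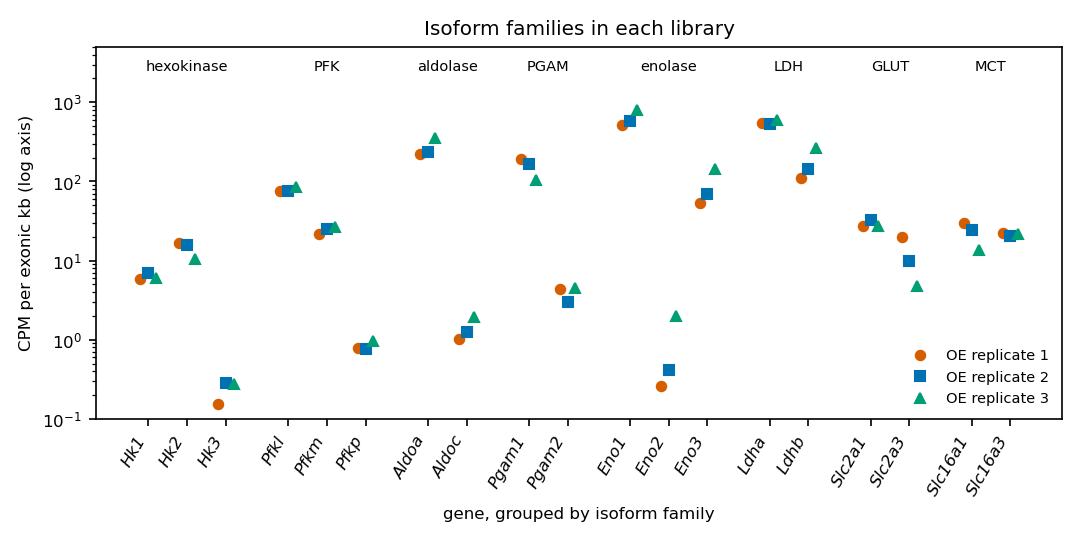
CPM per exonic kilobase (log axis) of the isoform families, with 1 symbol per library. *Pfkl*, *Aldoa*, *Pgam1*, *Eno1* and *Ldha* lead their families in every library, while *Slc16a1* and *Slc16a3* lie together.

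In lower glycolysis, *Gapdh* (ENSMUSG00000057666, chr6:125161715-125166467, minus strand), which oxidises the triose phosphate, had 3219, 3593 and 6258 CPM. Replicate 3 stood apart, with a 1.94-fold range that was 1.85-fold after trend removal. *Pgk1* (ENSMUSG00000062070, chrX:106187100-106203699, plus strand), the X-linked phosphoglycerate kinase that yields the first ATP, was instead among the steadiest members at 754, 693 and 678 CPM, a 1.11-fold range (1.26-fold after trend removal). *Pgam1* (ENSMUSG00000011752, chr19:41911923-41918660, plus strand), the general phosphoglycerate mutase, ran the other way from *Gapdh*, with 382, 332 and 206 CPM, and its range grew from 1.85-fold to 2.50-fold after trend removal. The muscle form *Pgam2* was low at 3.73, 2.53 and 3.77 CPM. Thus neighbouring enzymes of one chain were highest in different libraries.

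Enolase removes water from phosphoglycerate. The general form *Eno1* (ENSMUSG00000063524, chr4:150236721-150248879, plus strand) had 2765, 3086 and 4331 CPM. The muscle-type *Eno3* (ENSMUSG00000060600, chr11:70657202-70662513, plus strand) had 94.0, 121 and 250.2 CPM, and the neuron-type *Eno2* (ENSMUSG00000004267, chr6:124760053-124769673, minus strand) had 1.22, 1.94 and 9.42. All 3 enolases were highest in replicate 3. The range of *Eno2* was 7.74-fold, the widest of the members, and 6.80-fold after trend removal. Neuron markers were not highest in that library but in replicate 1, whereas the summed pigment cell markers were highest in replicate 3. Of 4 muscle markers, 3 were highest in replicate 3, with *Des* (20.6, 22.2 and 58.2 CPM) holding most of the sum of 24.8, 24.5 and 63.1 CPM, and *Myf5* was highest in replicate 1. The part of other cell types in *Eno2* and *Eno3* was not tested. The ratio of *Eno1* to *Eno2* per kilobase was 1986, 1392 and 402. *Pkm* (ENSMUSG00000032294, chr9:59656368-59679375, plus strand), the pyruvate kinase of most tissues, was steady at 2235, 2276 and 2567 CPM, a 1.15-fold range. The counts are per gene, so the *Pkm* splice forms M1 and M2 were not separated.

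**Figure D3:**
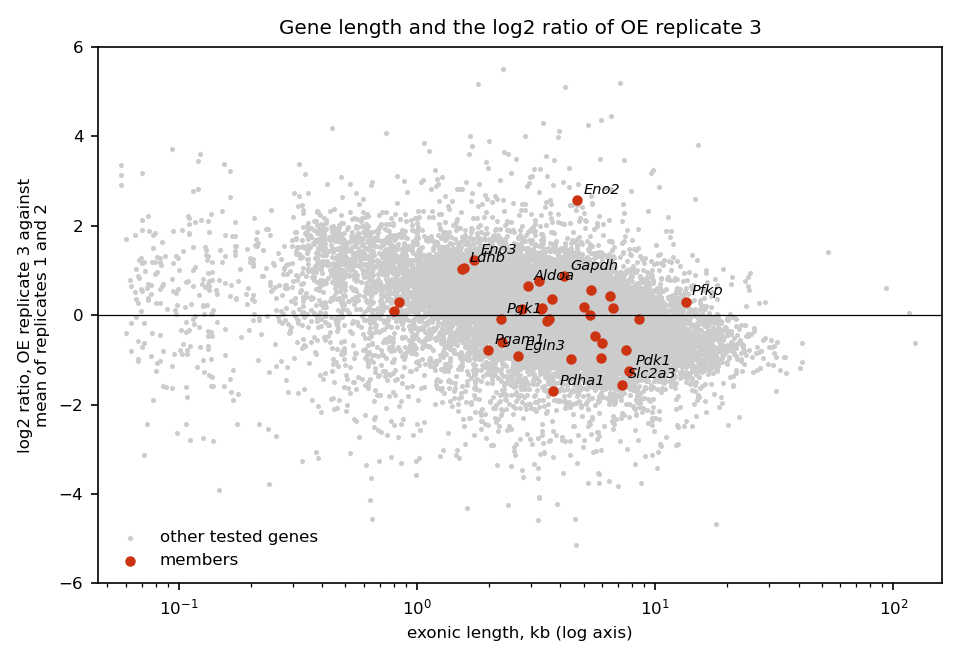
Log2 ratio of replicate 3 to the mean of replicates 1 and 2 against exonic length in kb (log axis), with all tested genes in grey and the members in red. Grey points fall with length, the longest-exon member *Pfkp* lies above zero, and *Eno2* lies highest among the members.

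Pyruvate is turned into lactate and exported, or enters mitochondria. *Ldha* (ENSMUSG00000063229, chr7:46841475-46855627, plus strand), whose subunit favours lactate formation, had 1819, 1738 and 1964 CPM, a 1.13-fold range, and *Ldhb* (ENSMUSG00000030246, chr6:142490249-142507957, minus strand), the heart-type subunit, had 175, 228 and 416. The ratio of *Ldha* to *Ldhb* per kilobase was 4.94, 3.61 and 2.24, so *Ldha* led in each library while its margin differed with *Ldhb*. The range of *Ldhb* was 2.39-fold and 1.62-fold after trend removal.

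The lactate carriers were of similar level. *Slc16a1* (ENSMUSG00000032902, chr3:104638668-104658462, plus strand, MCT1) had 133, 108 and 61.0 CPM and *Slc16a3* (MCT4, the carrier known from glycolytic cells) had 120.1, 108 and 115. Per kilobase their ratio was 1.33, 1.20 and 0.640, and the mean log2 ratio of 0.01 ± 0.57 (SD, n = 3) gives no leading form. *Pdk1* (ENSMUSG00000006494, chr2:71873224-71903858, plus strand), the kinase that shuts off pyruvate dehydrogenase and a known HIF target, had 119.7, 81.9 and 41.6 CPM, a 2.87-fold range and 1.93-fold after trend removal. *Pdha1* (ENSMUSG00000031299, chrX:160122209-160138413, minus strand), the X-linked subunit that this kinase phosphorylates, had 112, 93.1 and 31.4 CPM. Both were lowest in replicate 3, and *Pdha1* remained 2.96-fold apart after trend removal. The part of sex in *Pdha1* was not tested.

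The HIF system held 6 members. *Hif1a* (ENSMUSG00000021109, chr12:73901375-73947530, plus strand), the oxygen-labile subunit found in most cells, had 142, 116 and 66.5 CPM, and *Epas1* (HIF2 alpha, known from endothelium) had 15.2, 16.4 and 11.4. Per kilobase *Hif1a* was the higher of these in every library, at 24.1, 19.7 and 11.3 against 2.72, 2.94 and 2.04 CPM per kb. The prolyl hydroxylase *Egln1* (ENSMUSG00000031987, chr8:124908587-124949324, minus strand) had the narrowest range of the members before trend removal, 1.08-fold, at 94.0, 96.6 and 89.2 CPM, and a range of 1.32-fold after it. *Egln3* (ENSMUSG00000035105, chr12:54178981-54203860, minus strand), a hydroxylase that is itself a HIF target, had 12.6, 9.78 and 5.89 CPM. Its range of 2.15-fold was 2.46-fold after trend removal, with replicate 1 highest both times.

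*Bnip3* (ENSMUSG00000078566, chr7:138890836-138909519, minus strand), a HIF target that acts in mitophagy, had 20.4, 10.1 and 9.53 CPM, so replicate 1 stood above the others, which were close to each other. *Ankrd37*, a HIF target in other cells, had 1.40, 0.590 and 1.94 CPM, with its lowest value in replicate 2. Over the 6 members the median log2 ratio of a library to the mean of the others was 0.52 for replicate 1 and -0.53 for replicate 3, where all tested genes had 0.01 and -0.03. After trend removal these medians were 0.47 and -0.40. Within the system, *Ankrd37* was positive in both (0.36 and 1.04) and *Egln1* had 0.02 and -0.09. Before trend removal, medians of the same signs were found for glucose transporters (0.71 and -0.84) and lactate and pyruvate genes (0.41 and -0.48). Signs were opposite for aldolase and triose isomerase (-0.26 and 0.39), enolase and pyruvate kinase (-0.64 and 0.90), phosphofructokinase (-0.10 and 0.17) and *Gpi1* (-0.26 and 0.43). Hexokinases (-0.14 and -0.08) and lower glycolysis (0.20 and 0.10) had neither pattern. The HIF proteins are controlled mainly by stability, which RNA counts do not measure.

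The role of length and GC content was followed across all members. After trend removal, 18 members differed by at least 1.5-fold (47.2% of tested genes), and 14 of them also did so before. Of all 34 members, 9 were then at least 1.5-fold apart with replicate 1 highest (17.5% of tested genes), 1 with replicate 2 (7.3%) and 8 with replicate 3 (22.4%). *Slc2a3*, *Pdha1*, *Pdk1*, *Bnip3*, *Egln3*, *Slc16a1* and *Pgam1* were at least 1.5-fold apart with replicate 1 highest both times, and *Eno2*, *Eno3*, *Gapdh*, *Ldhb*, *Aldoc* and *Ankrd37* likewise with replicate 3 highest, and *Hk3* with replicate 2 highest. For *Aldoa*, *Eno1*, *Hif1a*, *Hk2* and *Pfkfb3* the range fell below 1.5-fold, to 1.18, 1.38, 1.37, 1.45 and 1.45. *Gpi1*, *Pfkp*, *Pgam2* and the second *Aldoa* entry passed 1.5-fold only after trend removal, at 1.55, 1.92, 2.01 and 2.00. In *Pgam2* and the second *Aldoa* entry the highest library also turned from replicate 3 to replicate 1.

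**Figure D4:**
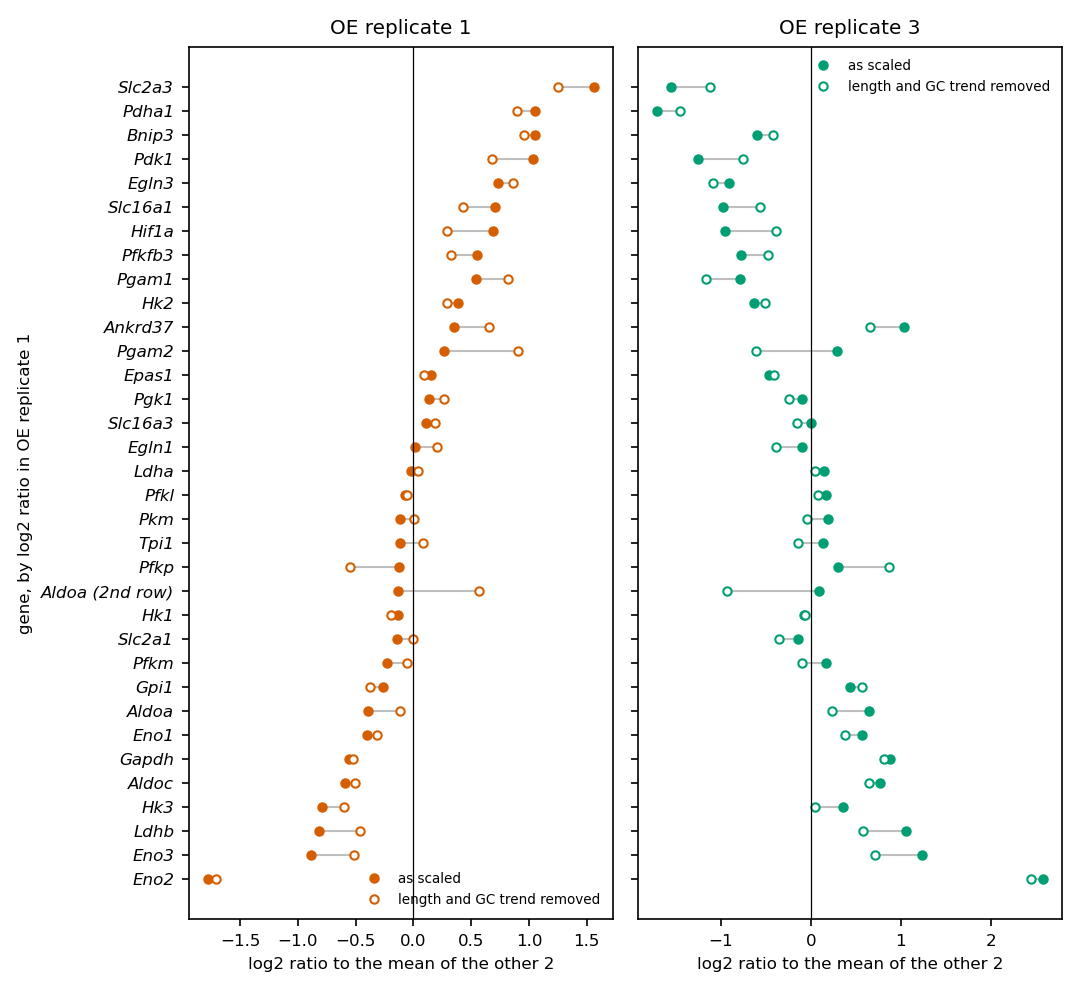
Log2 ratio of replicate 1 (left) and replicate 3 (right) to the mean of the other libraries for each member, as scaled (filled) and after trend removal by exonic length and GC content (open). *Eno2* is lowest in the left panel and highest in the right one, and the second *Aldoa* entry and *Pgam2*, the shortest members, move the most.

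Some members share sequence with other genes, and reads that fit several places were not counted. The share of 100-base transcript windows found in another annotated gene was 51.7% for *Pgk1*, 33.9% for *Pgam1*, 24.6% for *Bnip3*, 20.9% for *Gapdh* and 20.4% for *Eno1*, and 7 members had at least 10% (16.9% of tested genes did so). *Pgk1* and *Pgam1* shared windows with processed pseudogenes, among them *Pgk1-rs7* and *Pgam1-ps2*. *Gapdh* shared windows with 86 other genes, 82 of them pseudogenes, which together had 524, 550 and 1329 counts. For *Pgam1* the copies had 167, 106 and 81 counts, and for *Eno1* 504, 425 and 841. Reads that lie wholly within shared sequence have no unique place, so the levels of *Pgk1*, *Pgam1*, *Gapdh* and *Eno1* may be too low, and how many reads were lost was not measured. *Ankrd37* (with *Lrp2bp*) and *Pdha1* (with *Map3k15*) overlap a neighbour on the opposite strand, and since the strand setting of the counting was not given, their values are uncertain there. *Bnip3* overlaps *Gm45507* in this way and also shares 13.8% of its windows with genes elsewhere. *Gpi1* (11.5% of exonic bases, with *Gm26762*) and *Pfkp* (5.6%, with *Pitrm1*) also overlap a gene on the opposite strand, although *Gm26762* was not among the counted genes. *Hif1a* overlaps other genes over 8.1% of its exonic bases, 2.5% on the same strand. Some further members overlap by smaller shares. *Pkm* shares 15.3% of its exonic bases with *Gm49759* on the same strand, where reads are ambiguous under any strand setting, and the same holds for 10.2% of *Pfkm* with *Gm26513*.

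**Figure D5:**
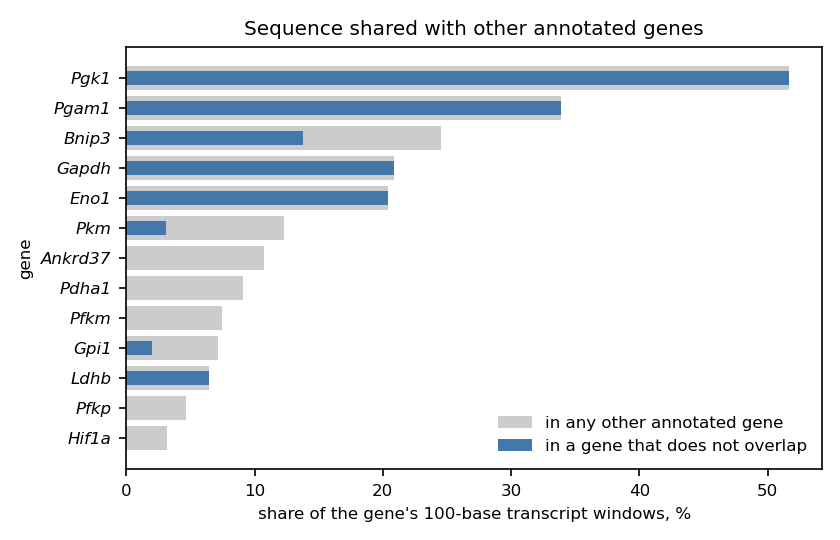
Share (%) of a gene's 100-base transcript windows that also occur in another annotated gene, in grey for any gene and in blue for genes that do not overlap it. *Pgk1* has the longest bar at 51.7%, all of it shared with genes elsewhere.

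Further genes of glucose, pyruvate and oxygen metabolism outside the members numbered 60, of which 52 were tested and 47 had at least 1 CPM in every library. Of the 52, 43 differed beyond counting noise (81.5% of all tested genes) and 29 by at least 1.5-fold (62.2%), with 13 highest in replicate 1 (26.2%), 3 in replicate 2 (7.4%) and 13 in replicate 3 (28.7%). After trend removal, 19 differed by at least 1.5-fold (47.2%). The most abundant by CPM were *Mif* (418, 509 and 1036 CPM), a HIF target cytokine, *Bsg* (269, 296 and 421), the chaperone of the lactate carriers, *Egln2* (111, 146 and 202), a further prolyl hydroxylase, and *Dld* (152, 142 and 102), a subunit of pyruvate dehydrogenase. The range of *Mif*, whose exons are short, fell from 2.48-fold to 1.09-fold once the trend was removed. *Pklr*, the pyruvate kinase of liver and red cells, had 11.3, 17.1 and 3.32 CPM and its 5.16-fold range was 5.97-fold after trend removal. It was highest in replicate 2, while the summed red cell markers were highest in replicate 3, and their part was not tested. *Ero1l*, a HIF target oxidase of the endoplasmic reticulum, had 43.5, 31.1 and 15.2 CPM, in the same library order as *Pdk1*. *Slc2a4*, the insulin-regulated transporter of muscle and fat, had 14.6, 17.6 and 39.0 CPM and was highest in replicate 3.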

How the data were processed

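Bulk RNA-Seq of 3 OE libraries was analysed, from GEO labels that give 1 genotype, stage and tissue, numbered in accession order. The authors deposited raw counts per gene, whole numbers without normalization. Per the labels and the methods, poly(A) libraries were made with an NEBNext Ultra kit, sequenced as 150 bp paired-end reads and mapped to mm10 with STAR 2.7.3a. The submitters' processing notes also name FastQC and HTSeq 0.12.4, while the annotation release and strand setting were not given in the sources used here. Rows that name no gene (14.2%, 15.7% and 16.4% of counted reads) were left out. Of 55401 identifiers, 55141 matched GENCODE M21, which gave names, exonic lengths and coordinates (mm10).

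CPM, TMM factors and the biological coefficient of variation (intercept-only model) came from edgeR 4.0.16. Genes were tested from a mean count of 10 upwards, and all 34 members passed. For counting noise, each gene's counts were set against the scaled library sizes by a chi-square test with Benjamini-Hochberg adjustment at 0.05. Log2 ratios used a prior count of 2, and the trend was a smooth mgcv 1.9.3 fit of exonic length and GC content over 17101 genes. R 4.3.3, Python 3.11.15, numpy 2.4.6 and pandas 2.3.3 were used. The steps were tested on simulated data. Since there was 1 group, no test between conditions was made. The RNA samples are described as independent, without naming embryos or litters, so p-values concern the spread between these samples only, part of which may be technical.

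All members are named. Of the 60 further pathway genes, the 4 most abundant and the 4 with the widest range at 5 CPM or more are named. *Barx1*, *Des*, *Myf5* and the genes sharing sequence with members were named after their values were seen. The members and lists were chosen with earlier results of these data known. Alternatives were DESeq2 1.42.0 size factors, total counts, other filters, prior counts, folds, lengths, windows and cores, trend removal and leaving out each replicate. The 300-base promoter window was chosen after seeing the data.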

Additional observations from a re-analysis of the deposited data

How the results depend on the processing

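Of 260 alternative values for 51 results, 126 leave out 1 library from a level or isoform ratio and cannot exceed the spread they are judged by, so they say nothing of stability. Of the other 134, 114 stayed within the limits set for each, 18 moved and 2 reversed. Of all values, 10 had the opposite sign to the one reported, 8 of them from a reported value smaller than its spread between libraries and 4 of these for *Slc16a1* to *Slc16a3*. Under other scalings, no mean level of a member moved by more than its spread between libraries (68 values for 34 members). Single libraries carried some levels, as *Eno2* was 4.19 CPM in all and 1.58 without replicate 3, and *Slc2a3* 83.7 in all and 52.6 without replicate 1. At 2-fold, 11 members differed. Leaving out each replicate gave 5 to 18 members at least 1.5-fold apart (16.7% to 56.7% of tested genes) and a median biological coefficient of variation of 0.131 to 0.372 (0.209 to 0.444 over all tested genes), in both cases lowest without replicate 3. The median log2 ratio over the members was small in every library, at -0.0484 in replicate 1, -0.0343 in replicate 2 and 0.113 in replicate 3. For replicate 1 it was 0.0697 with total counts and 0.0873 with the trend removed. For replicate 3 it changed sign to -0.0202 with total counts and -0.149 with the trend removed, was 0.0481 over members whose mean count reached 100, and was 0.0479 to 0.0752 when each other replicate was left out. No direction over the whole list was therefore given.

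The length used sets the ratios between isoforms. On the log2 scale, with the longest coding sequence and the longest transcript in place of all exons, *Ldha* to *Ldhb* went from 1.77 to 2.74 and 2.37, *Aldoa* to *Aldoc* from 7.61 to 7.24 and 8.29, *Hk1* to *Hk2* from -1.17 to -0.70 and -0.29, *Pfkl* to *Pfkm* from 1.69 to 2.69 and 2.32, and *Pfkl* to *Pfkp* from 6.56 to 5.56 and 6.77, with the same leading gene on average. *Slc2a1* to *Slc2a3* went from 1.56 to 0.52 and 1.45. In single libraries the leading gene changed for *Slc2a1* to *Slc2a3* with coding length (replicate 1), for *Hk1* to *Hk2* with the longest transcript (replicate 3) and for *Slc16a1* to *Slc16a3* with both (replicate 2). With ACGTG alone, 17 members held a core (24.3% of tested genes). With the whole 300-base window 27 did so (65.9%), an alternative chosen after seeing the data. No paired analysis was possible because there was only 1 group. Counting error limits *Hk3*, *Ankrd37* (21 counts in replicate 2) and the second *Aldoa* entry, and the precision of the other levels is limited by having 3 libraries that differ in sex, in other tissues and in the length trend.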
